A study of Mus musculus with 2 samples.

Results

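Collagens and laminins are the structural proteins of the extracellular matrix, and their chain genes were compared between shLuc and shKdm5b ES cells at 72 h without LIF. The genes were chosen by symbol, as those named Col with a number, an a and a number, or Lam with a, b or c and a number. This gave 52 of the 21935 gene symbols in the deposited expression tables, of which 17 encode basement membrane chains (6 chains of collagen IV and 11 laminin chains), 11 encode fibrillar collagens and 24 encode other collagens. The choice was made by symbol and not by measured values, but with earlier results of these data known.

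R1 is a line of mouse embryonic stem cells, maintained on a layer of irradiated mouse embryonic fibroblasts in serum-containing medium with LIF, the cytokine that sustains self-renewal. shKdm5b ES cells carried a lentiviral short hairpin RNA against *Kdm5b*, which encodes a demethylase of histone H3 lysine 4. The shLuc control cells carried a hairpin against luciferase. For differentiation, both were cultured for 72 h in the same serum-containing medium without LIF, in low-attachment dishes that favour 3D aggregates according to the labels. The transduced populations had been selected with puromycin. With 1 polyA RNA-Seq library per condition, no difference below has a replicate check, and a difference between the libraries cannot be told apart from a difference between the conditions.

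Basement membranes are thin sheets of matrix that underlie epithelia, and they are the first extracellular matrix that an embryo makes. A laminin is a cross-shaped trimer of 1 alpha, 1 beta and 1 gamma chain, and it forms a network on the cell surface that nucleates the sheet. Collagen IV, mostly a trimer of alpha 1 and alpha 2 chains at this stage, forms the second network, which stabilizes the sheet. Primitive and parietal endoderm, the extraembryonic lineages that line the early embryo and also appear on the surface of ES cell aggregates, are known producers of both. Fibrillar collagens build the rope-like fibrils of connective tissue, bone and cartilage.

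Expression was measured as RPKM, the reads of a transcript divided by its length and by the depth of the library, and as the whole-number reads behind it. The reads behind the RPKM numbered 78172700 for shLuc and 72702699 for shKdm5b cells, at which 3 reads on a transcript of 1 kb equal 0.0384 and 0.0413 RPKM. *Kdm5b*, the targeted gene, had an RPKM of 104 in shLuc and 3.01 in shKdm5b cells. All 9 ES cell markers that were checked were above 1 RPKM in both libraries, with summed RPKM of 3065 and 3181. By more than 1.5-fold, 1 was lower and 1 higher, beside 32.0% lower and 16.3% higher among all genes above 1 RPKM. After the correction for GC content described below, 1 was lower and 2 were higher, beside 18.1% and 18.6% of all genes. The highest of the 9 markers were *Dppa5a* (1096 and 1651 RPKM), *Pou5f1* (619 and 182 RPKM) and *Utf1* (444 and 362 RPKM). Log2 ratios set shKdm5b over shLuc after adding 0.1 to each RPKM, which understates differences of genes with low RPKM. Intervals are exact 95% counting intervals of the log2 read ratio, taken without that pseudocount, and they cover counting error only.

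*Col4a1* and *Col4a2*, the chain genes of the main collagen IV trimer, lie head to head on mouse chromosome 8 and share a promoter region. In GRCm38.p6, *Col4a1* runs from 11198423 to 11312889 on the minus strand and *Col4a2* from 11312805 to 11449287 on the plus strand, so that the gene intervals overlap by 85 bases. The windows below come from RefSeq, span 250 bases before to 50 after the start given there for each gene, and are shown because both genes were lower in the shKdm5b library. The *Col4a1* window is chr8:11312777-11313076 on the minus strand and the *Col4a2* window is chr8:11312555-11312854 on the plus strand, each written 5′ to 3′. The capitals mark the 78 bases that both windows hold, from 11312777 to 11312854, which are the reverse complement of each other.
*Col4a1*: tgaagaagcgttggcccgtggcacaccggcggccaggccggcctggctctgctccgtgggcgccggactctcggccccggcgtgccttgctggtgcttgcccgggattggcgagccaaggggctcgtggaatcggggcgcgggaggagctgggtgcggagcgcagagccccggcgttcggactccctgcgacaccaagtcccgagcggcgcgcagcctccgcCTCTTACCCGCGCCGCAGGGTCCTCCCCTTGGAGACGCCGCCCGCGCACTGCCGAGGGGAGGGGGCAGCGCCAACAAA
*Col4a2*: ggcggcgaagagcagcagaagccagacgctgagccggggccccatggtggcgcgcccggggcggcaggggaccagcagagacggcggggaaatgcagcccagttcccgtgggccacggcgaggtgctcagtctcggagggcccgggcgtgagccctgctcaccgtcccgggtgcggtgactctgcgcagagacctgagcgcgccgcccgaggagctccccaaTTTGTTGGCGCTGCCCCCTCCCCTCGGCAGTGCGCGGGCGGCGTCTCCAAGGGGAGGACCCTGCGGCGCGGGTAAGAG
The starts that RefSeq's windows use, 11312826 for *Col4a1* and 11312805 for *Col4a2*, lie 21 bases apart within the capitals. The gene interval of *Col4a1* reaches farther, to 11312889, which is outside them. GC content is 74.0% in the *Col4a1* window and 73.7% in the *Col4a2* window. Searched on both strands, the letters CCAAT occur once in each window, at base 106 of the *Col4a1* window and base 219 of the *Col4a2* window. The letters GGGCGG occur once in the *Col4a1* window and at 3 positions in the *Col4a2* window, and neither window holds TATAAA or GATAA. RefSeq windows were at hand for 38 of the 52 genes. GGGCGG occurred in 24 of these 38 (63.2%) and in 35.9% of all 27025 promoter windows of the same length, while CCAAT occurred in 13 (34.2%) against 37.9%. These matches describe the letters of the windows only.

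Of the 52 genes, 11 exceeded 1 RPKM in at least 1 library, and 9 of these also differed by more than 1.5-fold, with 8 lower and 1 higher in the shKdm5b library. The same thresholds were passed by 48.3% of the 11804 genes above 1 RPKM (16.3% higher and 32.0% lower), so both a difference of this size and its downward direction were common. Past 2-fold there were 6 lower and 1 higher of the 11 genes, against 16.5% lower and 6.27% higher among all genes. The 8 genes that were lower are *Col4a1*, *Col4a2*, *Lama1*, *Lama5*, *Lamb2*, *Lamc1*, *Col2a1* and *Col18a1*, and the gene that was higher is *Col9a3*. *Lamb1* and *Col9a2* were within 1.5-fold. The exact test of edgeR on these reads, which compares the libraries and not the conditions, kept all 9 genes at an assumed dispersion of 0 (16.2% of all genes higher and 30.8% lower) and 3 genes at an assumed dispersion of 0.04 (0.898% higher and 1.41% lower). These 3 were *Col4a2*, *Lama1* and *Col9a3*. Because the RNA is from bulk cultures, fewer cells of a type and less RNA per cell cannot be told apart.

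**Figure D1:**
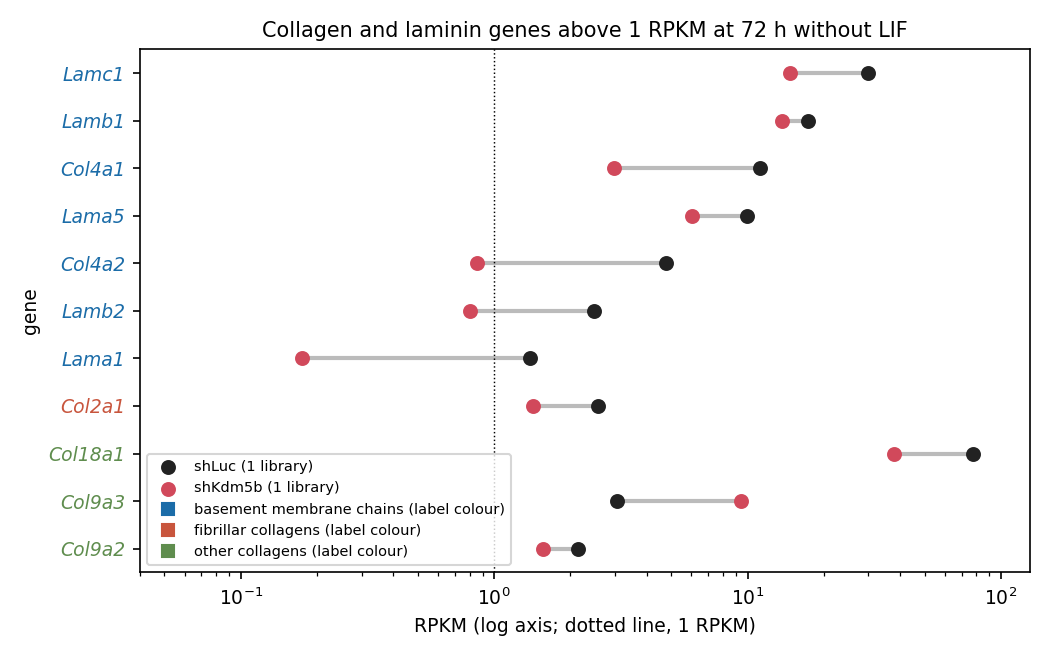
RPKM (log axis) of the 11 collagen and laminin genes above 1 RPKM, with 1 point for the shLuc library and 1 for the shKdm5b library and the gene class given by the label colour. The shKdm5b point lies to the left for 10 genes, farthest for *Lama1* (1.38 to 0.175 RPKM), and to the right for *Col9a3* (3.06 to 9.40 RPKM).

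Summed over the 52 genes, RPKM was 170 in shLuc and 94.3 in shKdm5b cells. The median log2 ratio of the 31 genes with a mean RPKM above 0.1 was -0.63, beside -0.22 over all 14773 genes of that level. By class, the median was -0.72 for 11 basement membrane chains, -0.27 for 8 fibrillar collagens and -0.69 for 12 other collagens. The median log2 ratio over genes above 1 RPKM in both libraries was -0.17, and with that shift taken out the medians were -0.55, -0.15 and -0.59. The transcripts of these genes also have a high GC content, with a median of 55.7% against 49.5% over all genes, and the log2 ratio across the 11533 expressed genes with a known GC content fell as GC content rose. The log2 ratios of the 11 genes above 1 RPKM are therefore given beside a value corrected for GC content, whereas RPKM sums, chain ratios and read ratios are uncorrected.

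Laminin alpha chains carry the domains through which laminins bind integrins and dystroglycan on cells. *Lama5*, the alpha chain of the laminins that ES cells and most epithelia make, had the highest level of the 5 alpha chains, with an RPKM of 9.97 (8876 reads) in shLuc and 6.03 (4996 reads) in shKdm5b cells. Its log2 ratio was -0.72 (interval of the read ratio -0.77 to -0.67), and after the GC correction it had the opposite sign, 0.13. *Lama1*, the alpha chain of the laminin made by extraembryonic endoderm and early embryonic basement membranes, had an RPKM of 1.38 (1029 reads) in shLuc and 0.175 (121 reads) in shKdm5b cells. The shKdm5b level was 12.6% of the shLuc level, the lowest share among the 11 expressed genes. Its log2 ratio was -2.43 with the pseudocount and -2.98 from the reads alone (-3.27 to -2.71), and -2.10 after the GC correction. The ratio of *Lama5* to *Lama1* RPKM was 7.21 (6.76 to 7.70) in the shLuc library and 34.5 (28.8 to 41.7) in the shKdm5b library.

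The other alpha chains were at most 0.142 RPKM in both libraries. *Lama3*, a chain of epithelial anchoring laminin, had 104 reads in shLuc and 76 in shKdm5b cells. *Lama4*, a chain of vascular laminins, had 67 and 45 reads. *Lama2*, the chain of muscle laminin, had 22 and 25 reads. The intervals of all 3 ratios included 0, so a difference was not detectable at this depth.

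Among the beta chains, *Lamb1*, which pairs with *Lamc1* in the laminins of early embryos, was within 1.5-fold, and *Lamb2*, the alternative beta chain best known from kidney and neuromuscular basement membranes, was lower. *Lamb1* had an RPKM of 17.4 (7852 reads) in shLuc and 13.7 (5748 reads) in shKdm5b cells, a log2 ratio of -0.34 (-0.39 to -0.30) that became 0.06 after the GC correction. *Lamb2* had an RPKM of 2.47 (1088 reads) in shLuc and 0.800 (327 reads) in shKdm5b cells, a log2 ratio of -1.52 (read ratio -1.63, -1.81 to -1.45) and -0.78 after the GC correction. The ratio of *Lamb1* to *Lamb2* RPKM was 7.02 (6.59 to 7.49) and 17.1 (15.3 to 19.2). *Lamb3*, the beta chain of epithelial anchoring laminin, had 33 and 23 reads.

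*Lamc1*, the gamma chain of nearly all laminins, was the most abundant laminin transcript. Its RPKM was 30.0 (17856 reads) in shLuc and 14.7 (8159 reads) in shKdm5b cells, which gives a log2 ratio of -1.02 (-1.06 to -0.99). After the GC correction the log2 ratio was -0.58, just short of 1.5-fold. *Lamc3* had 5 and 10 reads, with an interval that included 0. Since 1 gamma and 1 beta chain enter each trimer, the ratio of *Lamc1* to *Lamb1* RPKM was also taken, and it was 1.72 (1.68 to 1.77) in the shLuc library and 1.08 (1.04 to 1.11) in the shKdm5b library.

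The main collagen IV pair was lower by more than any laminin chain except *Lama1*. *Col4a1* had an RPKM of 11.2 (5809 reads) in shLuc and 2.97 (1427 reads) in shKdm5b cells, which is 26.4% of the shLuc level. *Col4a2* had an RPKM of 4.75 (2386 reads) in shLuc and 0.858 (401 reads) in shKdm5b cells, or 18.1%. The log2 ratio was -1.89 for *Col4a1* (read ratio -1.92, -2.01 to -1.84) and -2.34 for *Col4a2* (read ratio -2.47, -2.62 to -2.32), and the intervals of the read ratios did not overlap. After the GC correction the log2 ratios were -1.16 and -1.53. The ratio of *Col4a1* to *Col4a2* RPKM, the transcripts of chains that assemble in a fixed proportion, was 2.36 (2.25 to 2.48) in shLuc and 3.46 (3.09 to 3.87) in shKdm5b cells. The libraries are not described as stranded, so reads in the 85 shared bases cannot be assigned to either gene, but these are a small part of transcripts of 6615 and 6425 bases.

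*Col4a5*, the alpha 5 chain, which is best known from the kidney filter, was the only other collagen IV chain with more than 11 reads in a library. It had an RPKM of 0.773 (382 reads) in shLuc and 0.738 (339 reads) in shKdm5b cells, with an interval of -0.28 to 0.15. *Col4a6*, its head-to-head neighbour on the X chromosome, had 11 reads in shLuc and 1 in shKdm5b cells (read ratio -3.35, -8.78 to -0.57). *Col4a3* had 1 and 9 reads (read ratio 3.28, 0.42 to 8.73), and *Col4a4*, head to head with it on chromosome 1, had 1 and 0 reads. The last 3 genes are at levels where a handful of reads sets the ratio.

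The chain makeup of the transcripts differed between the libraries as follows. *Lama5* made up 85.6% of laminin alpha RPKM in shLuc and 93.6% in shKdm5b cells, and *Lama1* 11.9% and 2.71%. *Lamb1* made up 87.1% and 94.0% of beta chain RPKM. Within collagen IV, *Col4a1* held a similar share (66.9% and 64.8%), whereas the share of *Col4a2* was 28.3% and 18.7% and that of *Col4a5* was 4.61% and 16.1%. The larger share of *Col4a5* in the shKdm5b library came with nearly the same level of its own, because the summed RPKM of collagen IV was 16.8 in shLuc and 4.58 in shKdm5b cells. The summed RPKM of the 11 laminin chains was 62.1 and 36.1. Collagen IV thus differed by more in total than laminin did.

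**Figure D2:**
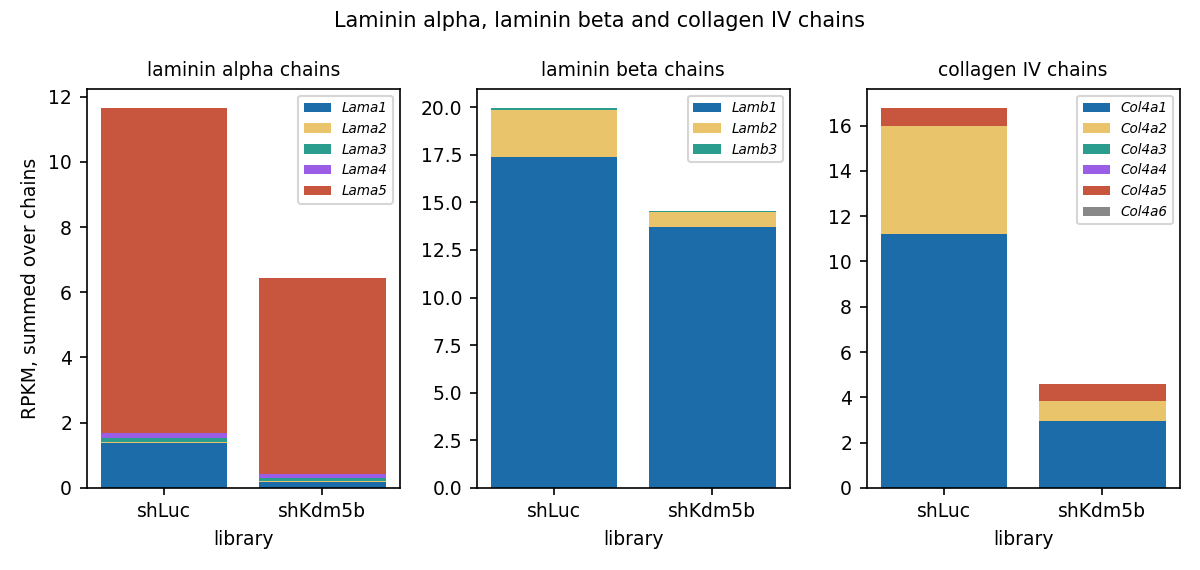
Summed RPKM (linear axis from 0, separate for each panel) of the laminin alpha chains, the laminin beta chains and the collagen IV chains in the shLuc and shKdm5b libraries, with 1 colour per chain. Collagen IV shows the largest proportional difference (16.8 to 4.58 RPKM), and the *Lama1* segment shrinks from 1.38 to 0.175 RPKM under a *Lama5* segment of 9.97 and 6.03 RPKM.

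Fibrillar collagens were scarce, with a summed RPKM over 11 genes of 4.84 in shLuc and 3.19 in shKdm5b cells. *Col2a1*, the cartilage collagen that is also made by early notochord and epithelia, was the only one above 1 RPKM and held 53.3% and 44.6% of the sum. It had an RPKM of 2.58 (994 reads) in shLuc and 1.42 (509 reads) in shKdm5b cells, a log2 ratio of -0.82 (read ratio -0.86, -1.02 to -0.71) that had the opposite sign, 0.08, after the GC correction. The chains of type I collagen, the main collagen of fibroblasts and bone, showed no detectable difference. *Col1a1* had 174 and 135 reads (-0.60 to 0.07) and *Col1a2* had 57 and 75 reads (-0.02 to 1.02). *Col3a1*, which accompanies type I collagen in soft tissues, had 15 and 17 reads.

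The type V chains, which set the diameter of collagen fibrils, did not move together. *Col5a1* had 360 reads in shLuc and 344 in shKdm5b cells (-0.18 to 0.26). *Col5a2* had 205 and 23 reads, and its RPKM of 0.396 and 0.0478 gave a log2 ratio of -1.75 with the pseudocount and -3.05 from the reads (-3.74 to -2.43). This was the lowest read ratio among the genes with at least 20 reads in both libraries together, with an interval that overlapped that of *Lama1*, but the gene stayed under 1 RPKM in both. *Col5a3* had 110 and 47 reads (-1.65 to -0.62). The ratio of *Col5a1* to *Col5a2* RPKM was 1.38 (1.16 to 1.65) in shLuc and 11.8 (7.72 to 18.8) in shKdm5b cells. The type XI chains *Col11a1* (141 and 94 reads) and *Col11a2* (23 and 5 reads) had intervals below 0, and *Col24a1* (7 and 20 reads) and *Col27a1* (74 and 102 reads) had intervals above 0.

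Among the other collagens, *Col18a1* was the most abundant of all 52 genes. It encodes a proteoglycan of basement membranes, the source of the fragment endostatin, and is grouped here with the collagens that interrupt their triple helix many times. Its RPKM was 77.8 (30678 reads) in shLuc and 37.7 (13830 reads) in shKdm5b cells, which placed it 663rd and 1710th among the 21935 symbols. The log2 ratio was -1.04 (-1.07 to -1.02), and after the GC correction it was -0.19. Alone it made up 45.8% of the RPKM of the 52 genes in shLuc and 40.0% in shKdm5b cells. *Col15a1*, the other member of its subfamily, had 6 and 0 reads and an interval whose upper bound was -0.13.

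*Col9a3* was the single collagen or laminin gene above 1 RPKM that was higher. Collagen IX sits on the surface of cartilage fibrils and is a trimer of the products of *Col9a1*, *Col9a2* and *Col9a3*. *Col9a3* had an RPKM of 3.06 (681 reads) in shLuc and 9.40 (1945 reads) in shKdm5b cells, a log2 ratio of 1.59 (read ratio 1.62, 1.49 to 1.75). After the GC correction the log2 ratio was 2.36, since transcripts of similar GC content were mostly lower. Its partner *Col9a2* had an RPKM of 2.14 (460 reads) and 1.56 (311 reads), a log2 ratio of -0.44 (read ratio -0.46, -0.67 to -0.25) that became 0.47 after the GC correction, and *Col9a1* had 7 and 4 reads. The 3 chains therefore did not move together, and the ratio of *Col9a3* to *Col9a2* RPKM was 1.43 (1.27 to 1.61) in shLuc and 6.03 (5.35 to 6.82) in shKdm5b cells.

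The other 21 genes of this class were at most 0.685 RPKM in both libraries. The highest was *Col8a2*, a chain of the short-chain network under the corneal endothelium, with 232 reads in shLuc and 93 in shKdm5b cells (-1.58 to -0.86). Collagen VI forms beaded filaments, and its chains differed: *Col6a2* had 108 and 49 reads, *Col6a4* 263 and 123 and *Col6a6* 61 and 16, all with intervals below 0, while *Col6a1* had 52 and 58 reads with an interval that included 0. *Col7a1*, the anchoring fibril that fastens the epidermis, had 136 and 32 reads (-2.59 to -1.42). *Col22a1* had 135 and 49 reads (-1.86 to -0.88), and *Col17a1*, a transmembrane collagen of hemidesmosomes, had 93 and 42 reads (-1.60 to -0.50). *Col13a1*, another transmembrane collagen, found at neuromuscular junctions, had 41 and 66 reads (0.21 to 1.39), the only interval of the 21 above 0. Intervals were also below 0 for *Col14a1* (37 and 10 reads), *Col16a1* (35 and 7), *Col20a1* (40 and 20), *Col23a1* (61 and 30) and *Col28a1* (12 and 3). They included 0 for *Col10a1*, *Col12a1*, *Col19a1*, *Col25a1* and *Col8a1*, which had between 0 and 27 reads in a library.

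Over the 41 genes at or below 1 RPKM in both libraries, the interval lay below 0 for 19, above 0 for 4 and across 0 for 18. Among all genes of such levels with a read, it lay below 0 for 27.6% and above 0 for 10.2%. Long transcripts collect more reads at the same RPKM and so have narrower intervals, and the median length was 5930 bases for these 41 genes against 2225 bases for all genes. By class, the interval was below 0 for 2 of 10 basement membrane chains, 4 of 10 fibrillar collagens and 13 of 21 other collagens. Without the RPKM threshold, 10 of the 41 would pass 1.5-fold on the pseudocount scale, and all 10 were lower, where 22.7% of all genes of such levels were lower and 7.76% higher. They were *Col5a2*, *Col5a3*, *Col6a2*, *Col6a4*, *Col6a6*, *Col7a1*, *Col8a2*, *Col16a1*, *Col17a1* and *Col22a1*. Of these, 3 remained past 1.5-fold after the GC correction, *Col5a2* (-1.69), *Col22a1* (-0.65) and *Col7a1* (-0.60). A further 5 low genes, *Col1a2*, *Col5a1*, *Col6a1*, *Col13a1* and *Col27a1*, were then past 1.5-fold and higher. The share of all genes of such levels past 1.5-fold after the correction was not computed. The correction curve was fitted over genes above 1 RPKM only, so its use on these low genes is an extrapolation.

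**Figure D3:**
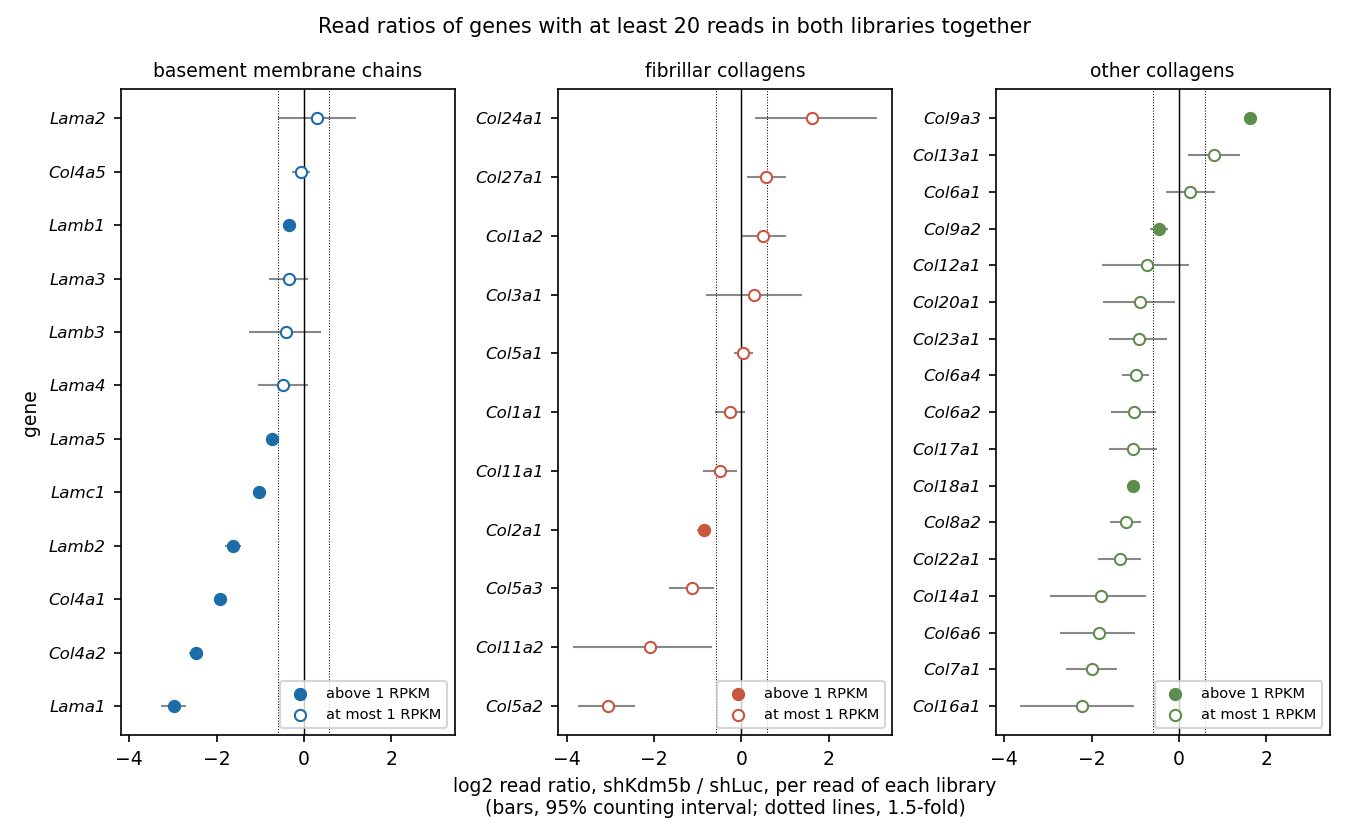
Log2 read ratio of shKdm5b to shLuc, per read of each library, with its exact 95% counting interval, for 40 genes with at least 20 reads in both libraries together, in 3 panels by class. Filled points are genes above 1 RPKM in a library, and the dotted lines mark 1.5-fold. *Lama1*, *Col4a2* and *Col4a1* are lowest in the first panel (-2.98, -2.47 and -1.92), *Col5a2* is lowest in the second (-3.05), and *Col9a3* is the highest in the third (1.62).

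The relation to GC content was examined because it runs through the whole comparison. Across 11533 genes above 1 RPKM, the Spearman correlation between transcript GC content and the log2 ratio was -0.53, where genes share the same libraries and are not independent replicates. The 11 expressed collagen and laminin transcripts had a median GC content of 58.8% against 50.5% for the expressed genes. Genes within 1 percentage point of *Col4a1* in GC content had a median log2 ratio of -0.76, with 10th and 90th percentiles of -1.61 and 0.22. Against these, *Col4a1* at -1.89 lay below the 10th percentile. The same held for *Col4a2* at -2.34 (-1.79 to 0.06 for genes of like GC content) and for *Lama1* at -2.43 (-1.32 to 0.44). *Lamb2* at -1.52 lay within its range (-1.61 to 0.13), and *Col9a3* at 1.59 lay above its range (-1.65 to 0.12). *Lama5*, *Lamb1*, *Lamc1*, *Col2a1*, *Col9a2* and *Col18a1* lay within the range of their neighbours in GC content, whose medians were between -0.94 and -0.42.

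After the GC correction, 5 of the 9 differences remained past 1.5-fold, those of *Col4a1*, *Col4a2*, *Lama1*, *Lamb2* and *Col9a3*. Among all genes, 36.7% then differed, with 18.6% higher and 18.1% lower. A correction for GC content and length kept the same 5 genes (15.1% of all genes higher and 16.7% lower). The differences of *Lamc1*, *Lama5*, *Col2a1* and *Col18a1* no longer passed, and those of *Lama5* and *Col2a1* had the opposite sign. The median log2 ratio of the 11 basement membrane chains was -0.15 after the correction, that of the 8 fibrillar collagens 0.27 and that of the 12 other collagens -0.19, beside -0.03 over all genes. The lower level of the classes as a whole was therefore not kept under this correction, whereas the collagen IV pair and *Lama1* were.

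**Figure D4:**
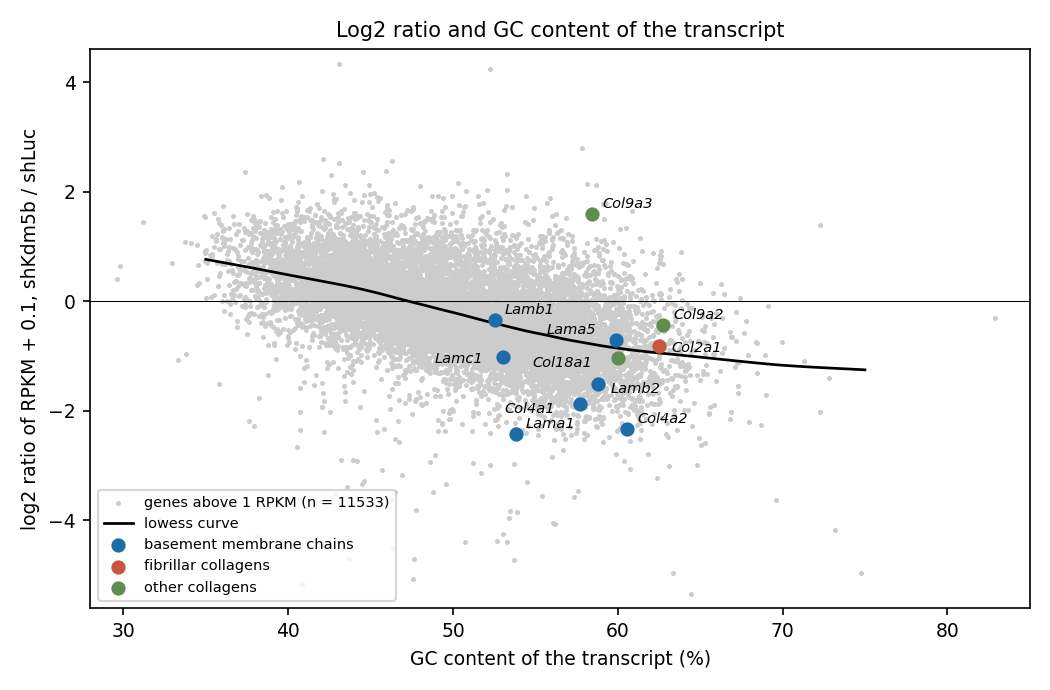
Log2 ratio of shKdm5b to shLuc on RPKM + 0.1 against the GC content of the transcript for 11533 genes above 1 RPKM (grey), with a lowess curve and the 11 expressed collagen and laminin genes coloured by class. The curve falls from low to high GC content. *Col4a1*, *Col4a2* and *Lama1* lie well below it, *Col9a3* lies well above it, and *Lama5*, *Lamb1*, *Col2a1* and *Col18a1* lie near it.

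Several of these genes lie near each other in the genome, and such pairs differed in how alike their ratios were. Pairs were taken among the collagen and laminin genes only, so other genes may lie between them. The head-to-head pair *Col4a1* and *Col4a2* had log2 ratios of -1.89 and -2.34. *Col3a1* and *Col5a2*, tail to tail on chromosome 1 and 24624 bases apart, had log2 ratios of 0.08 and -1.75. *Lama5* (180176373 to 180225904) and *Col9a3* (180598102 to 180622192), on opposite strands of chromosome 2 and 372197 bases apart, had -0.72 and 1.59. Of the remaining expressed genes, *Lama1* lies on chromosome 17 (67697127 to 67822645), *Lamb2* on chromosome 9 (108479847 to 108490530), *Lamb1* on chromosome 12 (31265146 to 31329644), *Lamc1* on chromosome 1 (153218922 to 153332786) and *Col18a1* on chromosome 10 (77052178 to 77166530), all in GRCm38.p6.

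The proteins that fold, link and bind these chains were described from a list of 51 genes. Of the 33 above 1 RPKM, 14 were lower, 3 were higher and 16 were within 1.5-fold, beside 32.0% lower and 16.3% higher among all genes. With GC content corrected, 2 of the 14 remained lower (*Glt25d1* and *Loxl3*), 2 of the 3 remained higher (*Sparc* and *P4ha1*), and 5 others became higher. Among all genes, 18.6% were then higher and 18.1% lower. The median log2 ratio over the list was -0.49 before and 0.07 after the GC correction. Among the 5 genes for proteins that link basement membrane networks, 2 were lower, 1 was higher and 2, the nidogens that bridge laminin and collagen IV, were within 1.5-fold. *Nid1* had an RPKM of 7.51 in shLuc and 9.58 in shKdm5b cells, and *Nid2* had 56.8 and 60.7. *Sparc*, a collagen-binding glycoprotein abundant in parietal endoderm, was higher, at 20.2 and 31.0 RPKM. The heparan sulfate proteoglycans *Hspg2* (4.54 and 2.03 RPKM) and *Agrn* (9.67 and 4.79 RPKM) were lower, and their log2 ratios were -0.26 and -0.21 after the GC correction.

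Of 11 expressed genes for the modification and folding of collagen chains, 6 were lower, 2 were higher and 3 were within 1.5-fold, beside the same 32.0% and 16.3%. After the GC correction *Glt25d1* alone of the 6 remained lower, beside 18.1% of all genes lower. *P4ha1*, the catalytic subunit of prolyl 4-hydroxylase, was higher (15.7 and 33.0 RPKM), and its partner *P4hb*, which is also a general protein disulfide isomerase, was lower (135 and 74.7 RPKM, -0.36 after the GC correction). *Ppib*, a proline isomerase, was within 1.5-fold (80.8 and 71.6 RPKM). The lysyl hydroxylases were split before the GC correction, with *Plod2* higher (28.1 and 45.2 RPKM) and *Plod1* and *Plod3* lower (log2 ratios -0.61 and -1.18). After the GC correction none of them was past 1.5-fold, at 0.38 for *Plod2*, 0.04 for *Plod1* and -0.44 for *Plod3*. *Lepre1*, a prolyl 3-hydroxylase, was lower (6.19 and 2.99 RPKM, -0.39 after the GC correction). *Serpinh1*, the collagen chaperone HSP47, was lower (16.4 and 8.07 RPKM), as was the collagen galactosyltransferase *Glt25d1* (40.3 and 15.9 RPKM), and after the GC correction the log2 ratios were -0.36 and -0.79. The receptors *Itgb1* (63.1 and 49.1 RPKM), *Dag1* (33.0 and 36.3 RPKM) and *Itga6* (26.6 and 21.5 RPKM), through which cells bind laminin, were within 1.5-fold, although *Dag1* was past it (0.70) after the GC correction. *Bcam*, a receptor for alpha 5 laminins, was lower (9.24 and 4.05 RPKM), as were *Ddr1* and *Itgb4*, but after the GC correction their log2 ratios were -0.29, 0.21 and 0.11. Of the cross-linking enzymes, *Loxl1* and *Loxl3* were lower (log2 ratios -0.68 and -1.52, and 0.15 and -1.12 after the GC correction). *Loxl2*, the most abundant of them, had 8.12 RPKM in shLuc and 11.4 RPKM in shKdm5b cells, which was within 1.5-fold before the GC correction and past it, at 1.07, afterwards. Of the secretion and processing genes, *Adamts14* was lower (2.64 and 1.18 RPKM, -0.31 after the GC correction), *Pcolce* was within 1.5-fold (6.31 and 5.05 RPKM), and *Mia3* had 0 reads in both libraries. *Mmp2* (10.2 and 6.95 RPKM) and *Mmp14* (8.52 and 5.77 RPKM) had the highest levels among the proteases and inhibitors, and none of the 5 expressed on the list passed 1.5-fold before the correction.

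Markers of cell types that make these chains were examined in the same libraries. Of 14 extraembryonic endoderm markers, all had a lower RPKM in the shKdm5b library, and all 7 above 1 RPKM were past 1.5-fold. At these thresholds, 32.0% of all genes above 1 RPKM were lower. The counting interval lay below 0 for 12 of the 14 markers. It included 0 for *Plat* (61 and 40 reads) and *Thbd* (5 and 4 reads). Over all genes with a read, RPKM was lower for 11319 and higher for 6836. The interval of these genes lay below 0 for 8224, above 0 for 4727 and across 0 for 5204. The summed RPKM of the 14 markers was 37.0 in shLuc and 5.46 in shKdm5b cells. Their median log2 ratio was -2.32 before and -1.62 after the GC correction. *Dab2* had 18.5 and 3.15 RPKM, *Cubn* 5.56 and 0.149 RPKM and *Gata4* 2.58 and 0.539 RPKM, and *Afp* had 65 and 0 reads. These markers were lower in the same library as *Col4a1*, *Col4a2* and *Lama1*, and their part in the result was not tested. Of further matrix genes that extraembryonic endoderm makes, *Lamc1* was lower by more than 1.5-fold (log2 ratio -1.02, and -0.58 after the GC correction). *Sparc*, *Nid1*, *Nid2* and *Lamb1* were not lower by 1.5-fold.

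The 17 fibroblast markers, which would also report cells of the feeder layer, had a summed RPKM of 23.6 in shLuc and 21.7 in shKdm5b cells. Of the 4 above 1 RPKM, only *Acta2* was past 1.5-fold (1.91 and 1.18 RPKM), and the highest were *Fstl1* (14.4 and 12.2 RPKM) and *Thy1* (4.08 and 4.59 RPKM). Among all genes, 32.0% were lower and 16.3% higher at these thresholds. With GC content corrected, *Acta2* no longer passed (-0.49), and 2 of the 4 were higher and 0 lower. Among all genes, 18.6% were then higher and 18.1% lower. The median log2 ratio of the 8 markers with a mean RPKM above 0.1 was 0.07 before and 0.30 after the GC correction. Over the 17 markers the counting interval lay above 0 for 4, below 0 for 4 and across 0 for 9. Over all genes with a read these numbers were 4727, 8224 and 5204. *Postn*, *Fap*, *Dpt* and *S100a4* had at most 6 reads in shLuc and 0 in shKdm5b cells. *Fbn1* was lower, with 201 and 72 reads (-1.79 to -0.98), whereas *Pdgfrb* had 212 and 322 reads, *Dcn* 17 and 43 and *Cd248* 7 and 20. The part of fibroblasts in the result was not tested. The 6 endothelial markers had a summed RPKM of 3.87 and 1.65. *Cldn5* was the only one above 1 RPKM and was lower (2.10 and 0.438 RPKM), *Tek* had 0.957 and 0.798 RPKM, *Esam* had 0.677 and 0.312 RPKM, and *Emcn* had 0 reads in both libraries. The part of endothelial cells in the result was not tested either.

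**Figure D5:**
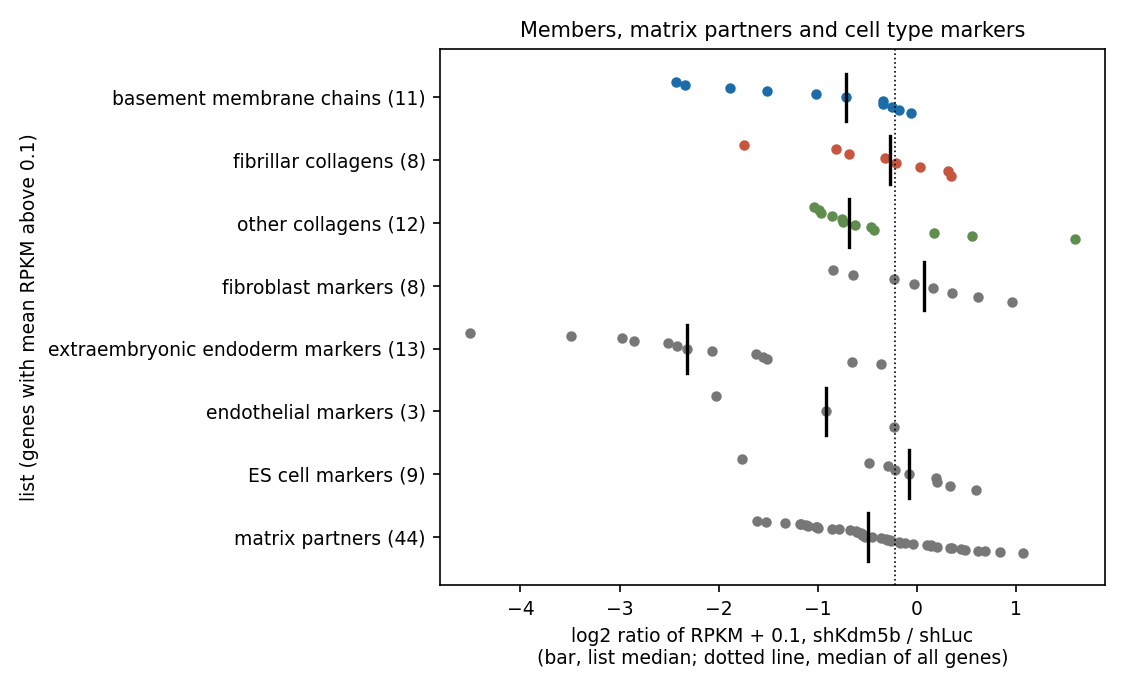
Log2 ratio of shKdm5b to shLuc on RPKM + 0.1 for each gene with a mean RPKM above 0.1 (points, spread vertically in order of their ratio), by class of collagen and laminin genes, marker list and matrix partners, with list medians as bars and the median of all genes (-0.22) as a dotted line. The extraembryonic endoderm markers have the lowest median (-2.32), and the basement membrane chains range from *Lama1* (-2.43) to *Col4a5* (-0.06). The fibroblast markers have a median of 0.07 and range from *Fbn1* (-0.85) to *Dcn* (0.96).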

How the data were processed

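RNA-Seq libraries of polyadenylated RNA were analysed for 1 shLuc and 1 shKdm5b culture, grouped by the sample labels. The authors deposited, for each of 27405 RefSeq entries, a whole-number read count, the transcript length in bases and an RPKM, which normalizes the count to length and sequencing depth. The submitters' processing notes name CASAVA 1.0, Bowtie 0.12.7 and mm8 without a role, and the program that counted the RNA-Seq reads is not given in the sources used here. A further column of small whole numbers, whose meaning is not stated, and the aligned reads were not used. The library kit is not described as stranded, so reads of overlapping genes cannot be told apart.

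The library totals follow from count, length and RPKM. Where a symbol had several entries, as 5 of the 52 genes did, the one with the highest mean RPKM was used. Genes past the thresholds differed by more than 1.5-fold on log2(RPKM + 0.1) and exceeded 1 RPKM in at least 1 library, after the study's thresholds. With 1 library per condition there is no spread for a quasi-likelihood test and no p-value is given. edgeR 4.0.16 (R 4.3.3) was run on the counts as an exact test at an assumed dispersion of 0 or 0.04 with an FDR below 0.001, which compares the libraries and not the conditions. Intervals are exact Clopper-Pearson intervals at 95% on the split of a gene's reads between the libraries. Without molecular identifiers, they and the 3-read limit for a count of 0 cover counting error only.

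GC content came from the GENCODE M21 transcripts of GRCm38 through the RefSeq accession, for 51 of the 52 genes and 97.7% of the expressed genes. The correction fitted a lowess curve (fraction 0.3, statsmodels 0.14.6) over expressed genes and also centres the ratios. Coordinates and promoter windows are those of RefSeq for GRCm38.p6 and describe the genes, not the alignment. Every collagen or laminin gene above 1 RPKM is named with its values. The others are named with their reads or a range, and 1 gene is counted but not reported here. Matrix partners were named when past the thresholds or among the 2 highest of their subclass, and markers when among the 3 highest of their list or at 0 reads. *Nid1*, *Itga6*, *Mia3*, the fibroblast markers *Fbn1*, *Pdgfrb*, *Dcn* and *Cd248* and the endoderm markers *Plat* and *Thbd* were named after their values were seen. *Col15a1* and *Col18a1* were counted with the other collagens. The genes, lists and alternatives were chosen with earlier results of these data known. The steps were tested on simulated data. Python 3.11.15 was used with SciPy 1.17.1, NumPy 2.4.6, pandas 2.3.3 and Matplotlib 3.10.9. The other time point, undifferentiated cells and ChIP-Seq data were not analysed here.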

Additional observations from a re-analysis of the deposited data

How the results depend on the processing

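No paired analysis was possible because there was only 1 library on each side, and for the same reason no replicate was left out. The spread between cultures is unknown, and for the 41 genes at or below 1 RPKM the small number of reads limits the comparison.

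The 9 genes past the thresholds (6 basement membrane chains, 1 fibrillar and 2 other collagens) numbered 9 under a pseudocount of 0.01, scaling to the 75th percentile, summed entries and the exact test at dispersion 0. With a pseudocount of 1, *Col2a1* was lost, which left 0 fibrillar collagens, and the median over genes with a mean RPKM above 0.1 was -0.18. Scaling to the median log2 ratio lost *Lama5*. Both GC corrections left 5 genes (1 higher and 4 lower), with 0 fibrillar and 1 other collagen. After the GC correction the medians over such genes were -0.15 for all classes together, -0.15 for basement membrane chains, 0.27 for fibrillar and -0.19 for other collagens, and after the GC and length correction -0.0042, -0.030, 0.44 and -0.058. *Lama5* (0.13 and 0.48) and *Col2a1* (0.082 and 0.25) changed sign under these corrections. Whether the corrections also remove regulation that follows GC content was not tested. With RPKM above 1 required in both libraries, 3 basement membrane chains remained, since *Col4a2*, *Lama1* and *Lamb2* fell below it in shKdm5b cells. With no RPKM threshold, 19 genes passed (1 higher and 18 lower), of which 3 were fibrillar and 10 other collagens. The share of all genes past 1.5-fold was not computed for the other pseudocounts, the scalings, the summed entries or the changed RPKM thresholds. Past 2-fold, 0 fibrillar collagens remained. The exact test at dispersion 0.04 left 3 genes (*Col4a2*, *Lama1* and *Col9a3*), 2 basement membrane chains, 0 fibrillar and 1 other collagen. Medians over genes above 1 RPKM were -1.02 for all classes, -1.52 for basement membrane chains and -0.82 for fibrillar collagens. Counting *Col15a1* and *Col18a1* with the basement membrane chains gave a median of -0.87. Of 77 values of single genes under the alternatives, 36 moved by no more than the distance from the middle of the gene's counting interval to its bounds. Another 37 moved by more, among them *Lamb1* (0.06 and 0.26) and *Col9a2* (0.47 and 0.52), which changed sign within 1.5-fold under the GC corrections. The other 4 are those of *Lama5* and *Col2a1*.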
